A study of Homo sapiens and Mus musculus with 16 samples.

Results

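The EGR, IER and KLF early response genes examined here were EGR1, EGR3, IER2, IER3, IER5, KLF2, KLF4, KLF6, KLF10 and MYC, 10 of the 22314 genes in the mRNA table. They were taken by name rather than by a threshold on a measured value. mRNA was sequenced from SK-HEP-1, an established human liver cancer cell line grown in DMEM with 10% serum. Cells received either DMSO (U, untreated) or AcFBE (T, treated), an ethanol extract of the fruiting body of the fungus Antrodia cinnamomea, each at 0.5 mg/ml, and were collected after 2 or 4 h. This gave 4 libraries, called 2U, 2T, 4U and 4T, and the question was how the mRNA of these genes differed with the extract and between the 2 untreated cultures. Per the study's methods, the extract was given in fresh medium that replaced the old. A change of medium is not described separately for the DMSO cultures.

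Early response genes are switched on within minutes when a cell meets serum, a growth factor, stress or damage, without any new protein being needed first. Signals running through the MAP kinases reach factors that already sit on their promoters, such as SRF with its ETS partners, and both the transcript and the protein are short-lived. Most of their products are transcription factors or small regulators that set the next wave of genes in motion, and in liver cells they are known for their quick response to injury and regrowth.

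Levels are FPKM, fragments per kilobase of transcript, scaled to the mapped reads of the library, which may be compared between genes because they are set per length. Each condition, a treatment at a time, had 1 library, so no value has a replicate and every ratio below compares 2 libraries rather than 2 conditions. A test was possible only for the treatment over both times together, and it is given after the values of the single genes. A ratio was formed for a gene above 0 in both libraries and at 1 FPKM or more in at least 1 of them, and a gene was called lower or higher at a ratio of 2-fold or more. In these bulk samples, fewer cells expressing a gene and less RNA per cell cannot be told apart.

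Between 5000 and 5605 genes reached 1 FPKM in a library, and 8454 to 10691 genes were above 0. The table gives no counts, so the number of reads behind a value is not known from it, but low values showed relative depth at 2 h. Of the 2220 genes above 0 and under 0.6 FPKM in both 2U and 2T, 23.9% stood within 0.2% of a ratio of whole numbers up to 4 once a read in 2U was taken to be worth 1.08 times a read in 2T. For the 3 other pairs of libraries the best such share was 2.98% or less. No value between 0 and 0.2 FPKM was listed at 4 h, where 2U held 2656 such values and 2T held 1173, so a 0 at 4 h may hide a level that would have been printed at 2 h. Of the 8 hepatocyte markers examined, 7 were listed at 0 in every library, albumin (ALB) and HNF4A among them, and SERPINA1 alone was present, at 8.59 to 18.7 FPKM. Of 8 endothelial markers 6 were listed at 0, with ENG and CAV1 present, and of 5 blood cell markers 4 were at 0 and CD14 did not pass 0.330 FPKM.

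The promoters of 4 members that were lower in both treated libraries than in either untreated one are shown because they are the DNA on which early response signals act. Each is the 250 bases before the RefSeq start of transcription, read in the direction of the gene on GRCh38.p14, for EGR1 (chr5:138465229-138465478, + strand), IER2 (chr19:13150161-13150410, + strand), IER5 (chr1:181088450-181088699, + strand) and KLF6 (chr10:3785210-3785459, - strand). Capitals mark CArG boxes, the site bound by SRF.
EGR1: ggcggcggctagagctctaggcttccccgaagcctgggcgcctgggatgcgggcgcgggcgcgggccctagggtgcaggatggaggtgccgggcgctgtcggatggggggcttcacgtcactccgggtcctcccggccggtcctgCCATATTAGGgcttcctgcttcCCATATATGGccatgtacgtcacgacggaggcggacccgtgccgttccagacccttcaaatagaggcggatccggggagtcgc
IER2: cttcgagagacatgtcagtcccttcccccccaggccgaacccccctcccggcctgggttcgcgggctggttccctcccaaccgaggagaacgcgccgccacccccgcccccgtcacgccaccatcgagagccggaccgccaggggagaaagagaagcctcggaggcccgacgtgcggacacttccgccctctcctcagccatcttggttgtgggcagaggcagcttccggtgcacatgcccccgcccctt
IER5: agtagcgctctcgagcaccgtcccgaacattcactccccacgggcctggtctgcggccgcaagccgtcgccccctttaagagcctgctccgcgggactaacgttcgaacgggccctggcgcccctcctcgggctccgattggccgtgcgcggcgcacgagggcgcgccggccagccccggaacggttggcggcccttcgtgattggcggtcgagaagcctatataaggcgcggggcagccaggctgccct
KLF6: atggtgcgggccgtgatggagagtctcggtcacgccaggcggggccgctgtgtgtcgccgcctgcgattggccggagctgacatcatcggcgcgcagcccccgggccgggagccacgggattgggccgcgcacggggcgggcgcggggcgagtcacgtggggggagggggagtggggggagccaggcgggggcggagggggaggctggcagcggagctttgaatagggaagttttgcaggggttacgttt

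EGR1 was the member with CArG boxes in this window, with 1 at 105 to 96 bases and another at 83 to 74 bases before the start. A CArG box was found in 1.14% of the 27305 promoters of the same length, searched on both strands. The promoter table held 6 members, EGR1, IER2, IER5, KLF2, KLF4 and KLF6, and none other of the 6 had a CArG box. The EGR site, written GCGNGGGCG, was in 4 of the 6 (EGR1, KLF2, KLF4 and KLF6) and in 8.25% of all promoters. The GC box GGGCGG, which can overlap the EGR site, was in 4 of the 6 (IER2, KLF2, KLF4 and KLF6) and in 42.3% of all. TGACG, the core of the CREB site, was in EGR1, IER2 and KLF4 and in 21.7% of all. The E-box CACGTG, which MYC binds with MAX, was in KLF4 and KLF6 and in 6.49% of all. CCGGAAG, 1 form of the ETS site, was in IER2, at 27 to 21 bases before the start, and in 8.82% of all. Other forms of the ETS site were not searched for. The full CREB site TGACGTCA (1.77% of all), the AP-1 site TGACTCA or TGAGTCA (4.16%) and TATAAA (11.1%) were in none of the 6. These are matches of letters in a short window and do not show that a factor was bound. The 4 printed promoters were 68.4% (EGR1), 69.6% (IER2), 70.4% (IER5) and 72.4% (KLF6) G and C, against a median of 58% over all promoters.

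At 2 h, IER2, IER3, IER5 and KLF6 were called lower in 2T than in 2U and MYC was called higher. At 4 h, EGR1, IER2, IER3, IER5, KLF2 and MYC were called lower in 4T than in 4U. Over all genes with a ratio, 19.9% were called lower and 23.5% higher at 2 h (n = 5475), and 28.2% were called lower and 16.6% higher at 4 h (n = 5971). The 5 members with a ratio at 2 h had a median log2 ratio of -2.29, beside 0.02 over all genes, and the 6 with a ratio at 4 h had -2.39, beside -0.37. KLF6 at 2 h, and EGR1 and KLF2 at 4 h, reached 1 FPKM only in the untreated library, so they could hardly have been called otherwise and these counts and medians do not stand for the 10 genes. EGR1 in 2T, EGR3 in every library and KLF4 in 3 libraries were listed at 0, and KLF10 did not reach 1 FPKM.

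**Figure D1:**
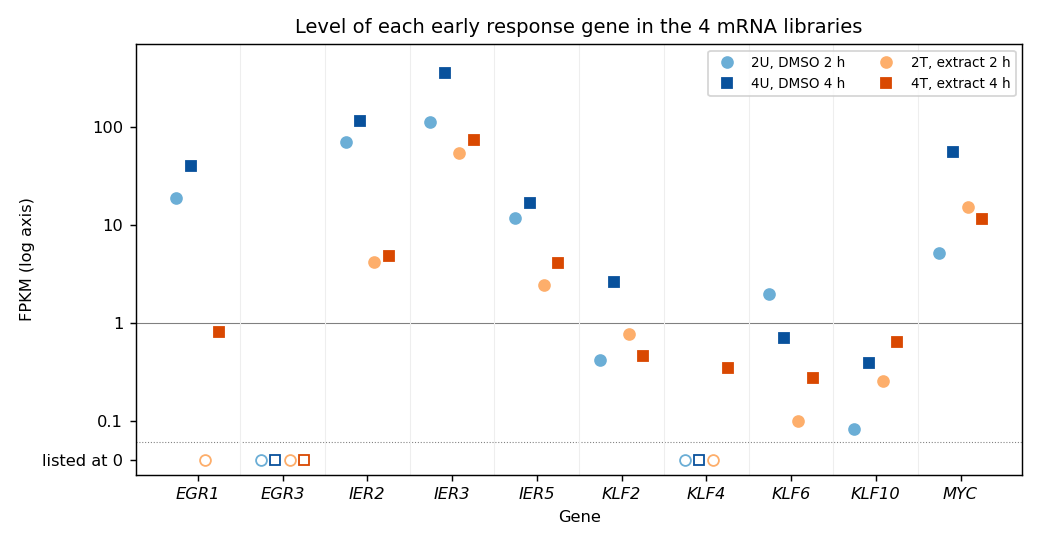
FPKM of each of the 10 genes (log axis) in 2U, 2T, 4U and 4T, 1 point per library, with open symbols on the lowest line for values listed at 0 and a grey line at 1 FPKM. For EGR1, IER2, IER3, IER5 and KLF6 both treated libraries lie below both untreated ones, and MYC is lowest in 2U (5.14 FPKM) and highest in 4U (55.0 FPKM).

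EGR1 is a zinc finger transcription factor that binds GC-rich promoter sites soon after a growth signal. Its level was 18.6 FPKM in 2U and 0 in 2T, then 39.8 in 4U and 0.810 in 4T. Both untreated libraries were thus far above both treated ones, and the level in 4T stood 49.1-fold under that in 4U, a log2 ratio of -5.62. Of all genes with a ratio at 4 h, 0.117% had a lower one. EGR1 lay above 85.1% of the genes present in 2U and above 88.0% in 4U, but above only 41.1% in 4T. A fold at 2 h is not given because 2T was listed at 0. EGR3, a close relative, was listed at 0 in all 4 libraries.

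IER2, a small nuclear protein induced by growth factors, came to 69.5 FPKM in 2U and 4.13 in 2T, then 114 in 4U and 4.75 in 4T. The 2 treated libraries were close to each other and well under both untreated ones, by 16.8-fold at 2 h (log2 ratio -4.07) and 24.1-fold at 4 h (-4.59). A lower ratio was found for 0.438% of genes at 2 h and 0.234% at 4 h. IER2 was the member with a ratio under -4 at both times.

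IER3, also called IEX-1, is a stress-induced protein that takes part in the control of cell death, and it had the highest level among the members in every library. It measured 111 FPKM in 2U and 54.6 in 2T, then 354 in 4U and 73.9 in 4T. Both treated values were under both untreated ones, but 2T lay just past the 2-fold mark, at 2.04-fold under 2U (log2 ratio -1.03), and 19.2% of genes had a lower ratio. At 4 h the level in 4T was 4.79-fold under 4U (log2 ratio -2.26), with 2.63% of genes lower. When each library was scaled to the same FPKM total, the log2 ratio at 2 h was -0.97 and IER3 was no longer called there.

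IER5, a regulator of the heat shock factor HSF1 that is induced by serum and radiation, stood at 11.7 FPKM in 2U and 2.40 in 2T, then 16.8 in 4U and 4.03 in 4T. It was 4.89-fold lower in 2T than in 2U (log2 ratio -2.29) and 4.17-fold lower in 4T than in 4U (-2.06), and the treated values did not overlap the untreated ones. Of all genes, 3.65% had a lower ratio at 2 h and 3.99% at 4 h. The order of levels IER3, IER2, IER5 was the same in all 4 libraries.

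The KLF genes, which encode zinc finger factors that bind GC-rich and CACCC sites, had lower levels than the IER genes in each library. KLF2, known from blood vessel lining and resting T cells, came to 0.413 FPKM in 2U and 0.762 in 2T, then 2.63 in 4U and 0.461 in 4T. Its level in 4U stood alone above 1 FPKM, and 4T was 5.70-fold under it (log2 ratio -2.51), with 1.62% of genes lower. At 2 h KLF2 was the higher in the treated library, with both values under 1 FPKM and no ratio formed. KLF6, a factor induced in injured liver, measured 1.95 FPKM in 2U and 0.0987 in 2T, then 0.693 in 4U and 0.275 in 4T. Both treated values of KLF6 were under both untreated ones. Its level in 2T was 19.8-fold under 2U (log2 ratio -4.30, with 0.329% of genes lower), although the value in 2T is within the range that was not printed at 4 h.

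KLF10, which TGF-beta induces, stood at 0.0826 FPKM in 2U and 0.254 in 2T, then 0.384 in 4U and 0.637 in 4T, so that it was the higher in the treated library at each time. KLF4, one of the factors used to reprogram cells to pluripotency, was listed at 0 in 2U, 2T and 4U and at 0.345 FPKM in 4T. Neither reached 1 FPKM, and neither was called.

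MYC, the transcription factor that pairs with MAX to drive growth and ribosome genes, went in opposite directions at the 2 times. It came to 5.14 FPKM in 2U and 15.3 in 2T, then 55.0 in 4U and 11.6 in 4T. The treated values lay close together and between the 2 untreated ones. MYC was therefore 2.98-fold higher in 2T than in 2U (log2 ratio 1.57, above 86.4% of genes) and 4.75-fold lower in 4T than in 4U (-2.25, with 2.68% of genes lower). Of the 5208 genes with a ratio at both times, 3.42% were called in opposite directions, and 2.8% were higher at 2 h and lower at 4 h as MYC was. In 2U, where MYC was lowest, ACTB, the actin gene used as a loading control, was also low, at 653 FPKM beside 2305 in 2T, 2198 in 4U and 1827 in 4T, and its part in the MYC ratio was not tested.

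**Figure D2:**
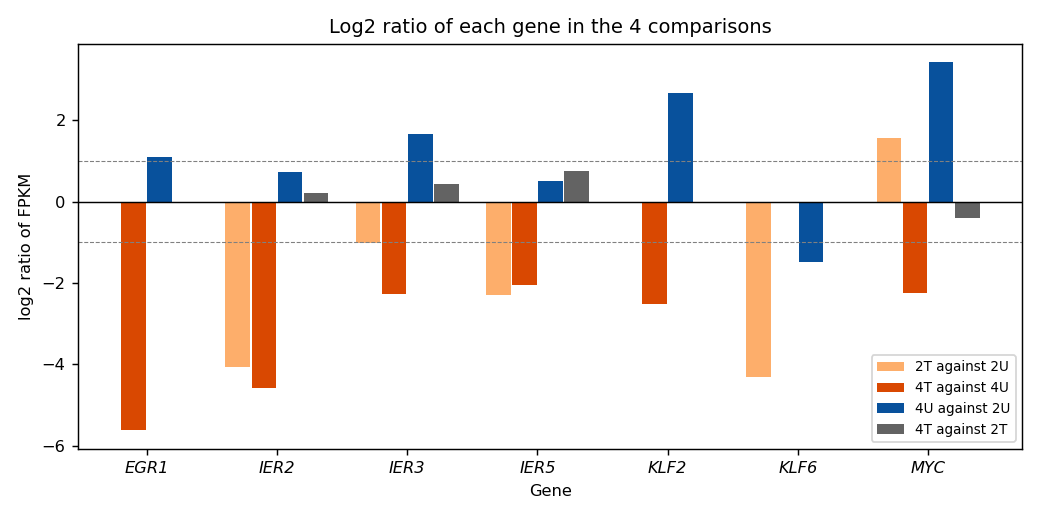
Log2 ratio of FPKM for the 7 genes that had a ratio in at least 1 of the 4 comparisons, 1 bar per comparison, with dashed lines at the 2-fold marks and no bar where no ratio was formed. The IER2 bars reach below -4 at both 2 h (-4.07) and 4 h (-4.59), and the MYC bars for treated against untreated point in opposite directions (1.57 and -2.25).

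Across the 10 genes, 5 (EGR1, IER2, IER3, IER5 and KLF6) had both treated values under both untreated values. Among the 6424 genes with at least 1 FPKM in a library, 32% did so and 22.7% had both treated values above both untreated ones. Of the 7 members that reached 1 FPKM in a library 5 did so (71.4%). However, EGR1 reached it in 2U and 4U alone, KLF6 in 2U alone and KLF2 in 4U alone. These genes were counted only through untreated libraries and could hardly have had both treated values above. No member had both treated values above both untreated ones. Summed over the 10 genes, the level was 219 FPKM in 2U and 77.5 in 2T, then 584 in 4U and 96.8 in 4T, and IER3 made up most of the sum in every library.

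Treated and untreated libraries were also compared over both times, as 2 against 2, with limma on log2(FPKM + 1) over the same 6424 genes. With time as a block, which leaves 1 residual degree of freedom, EGR1 was lower by 4.39 ± 0.44 (SE) in the treated libraries (mean 0.43 against 4.82, limma adjusted p = 0.0018) and IER2 by 4.05 ± 0.48 (mean 2.44 against 6.49, limma adjusted p = 0.0047). Both were lower at 2 of 2 times, and over all genes 0.451% were called lower and 0.156% higher at an adjusted p of 0.05. The other 5 members in the fit were not called, with limma adjusted p of 0.0733 for IER5, 0.127 for IER3, 0.299 for KLF6, 0.608 for KLF2 and 0.814 for MYC. Without the block, which leaves 2 degrees of freedom, limma called 0 genes (1331 at an unadjusted p under 0.05), with an adjusted p of 0.146 for EGR1 and 0.105 for IER2. After scaling to a common median ratio the blocked fit also called 0 genes, with 0.0761 for EGR1 and 0.0779 for IER2. The value of EGR1 listed at 0 in 2T entered these fits as 0. EGR1 reached 1 FPKM in 2U and 4U only. It was thus in the fit through the untreated libraries alone and could hardly have been called higher. The spread in the blocked fits is how the treatment difference varied between the 2 times, and without the block it also holds the difference between times. With limma, the spread of each gene was drawn toward that of genes at a like level, so an SE is not that gene's own spread alone. It is not the spread between cultures of 1 condition, and this test was chosen after the data were seen.

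**Figure D3:**
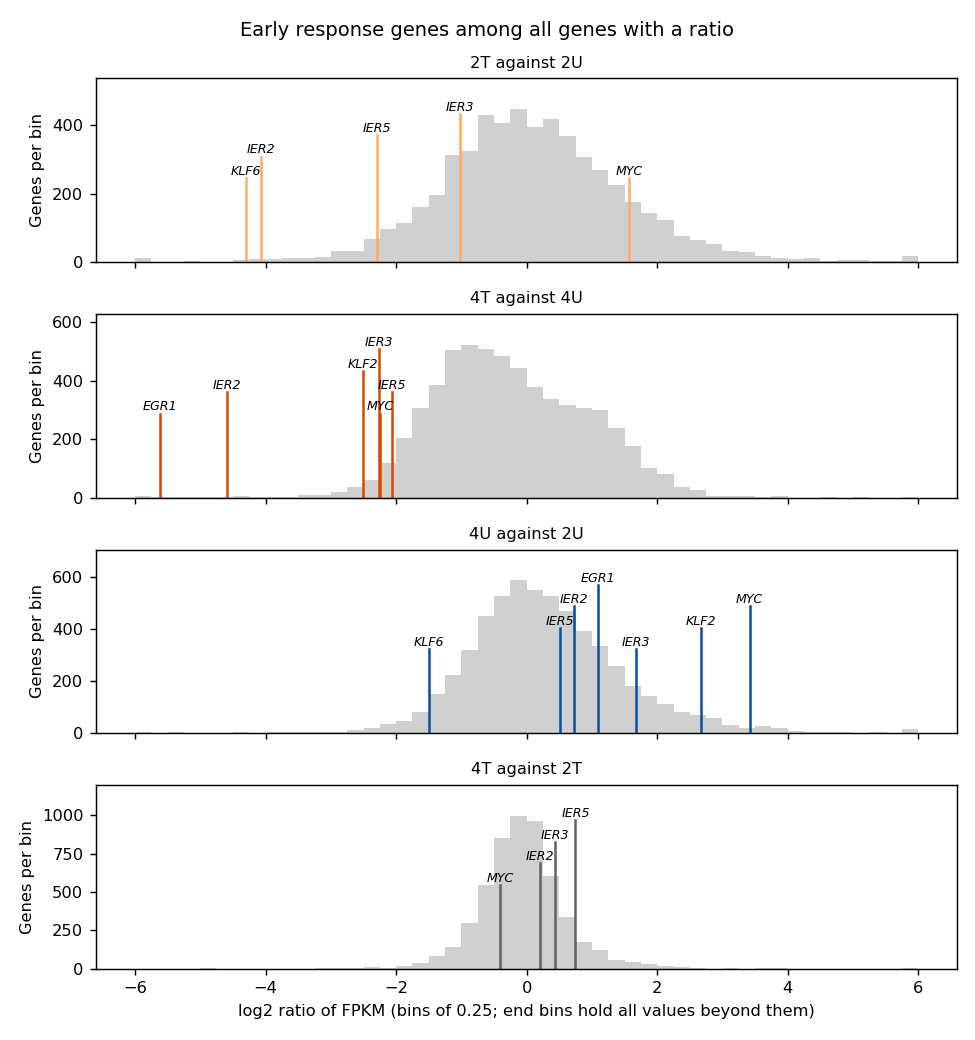
Number of genes per bin of log2 ratio (bins of 0.25, end bins holding all values beyond) in the 4 comparisons, with the members marked by coloured lines whose height has no meaning. In 4T against 4U the 6 marked genes stand at -2.06 or less, and in 4T against 2T the 4 marked genes stand between -0.40 and 0.75.

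The untreated libraries also differed from each other. They differed as well in how low values were listed, with read steps and values under 0.2 FPKM at 2 h only, so time and the making of the values cannot be told apart in what follows. EGR1, IER3, KLF2 and MYC were called higher in 4U than in 2U and KLF6 was called lower. Over the 5800 genes with a ratio, 23.8% were called higher and 10.4% lower, and the median log2 ratio was 0.19, beside 1.10 over the 7 members with a ratio. MYC differed most, by 10.7-fold (log2 ratio 3.42, above 98.4% of genes). KLF2 followed at 6.37-fold (2.67, above 96.2%), then IER3 at 3.18-fold (1.67, above 88.3%) and EGR1 at 2.14-fold (1.10, above 78.5%). IER2 at 1.65-fold (0.72) and IER5 at 1.43-fold (0.52) were higher in 4U but not called. KLF6 was 2.82-fold lower in 4U (log2 ratio -1.49, with 4.02% of genes lower). KLF2 reached 1 FPKM in 4U alone and KLF6 in 2U alone, so their calls could take 1 direction only.

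The 2 treated libraries were nearer to each other. The 4 members with a ratio between 4T and 2T were all within 2-fold, with log2 ratios of 0.20 for IER2, 0.44 for IER3, 0.75 for IER5 and -0.40 for MYC. Over the 5382 genes with a ratio, 5.65% were called higher and 5.78% lower. The comparisons of treated with untreated share their libraries with these comparisons over time, so a high 4U value enters both the ratio of 4T to 4U and that of 4U to 2U. For IER3 the log2 ratio at 4 h was -1.43 against the geometric mean of both untreated libraries, and for MYC it was -0.54, which is no longer a call.

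The rest of the 3 families was mostly at or near 0. Of 16 other EGR, IER and KLF genes, 7 were listed at 0 in every library and 2 reached 1 FPKM. EGR4 measured 0.475 FPKM in 2U and 1.09 in 4U and was listed at 0 in both treated libraries. KLF16 stood at 1.95 FPKM in 2U and 2.59 in 2T, then 5.45 in 4U and 1.75 in 4T, so it was highest in 4U as KLF2 was, and called lower in 4T than in 4U (log2 ratio -1.64). NAB1 and NAB2, the corepressors that bind EGR factors, stayed under 1 FPKM.

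Genes that EGR1 and KLF factors are known to act on were then examined. Of 10 EGR1 target genes, 4 had a ratio at each time. F3, tissue factor, was called higher at 2 h, at 0.307 FPKM in 2U and 1.21 in 2T. Of that pair it reached 1 FPKM in 2T alone and could hardly have been called otherwise. The median log2 ratio of the list was -0.01 at 2 h and -0.47 at 4 h, and its other calls are not reported here. Of 7 KLF target genes, 1 of the 2 with a ratio at 2 h and 3 of 3 at 4 h were called lower. Over all genes with a ratio, 19.9% were called lower and 23.5% higher at 2 h, and 28.2% lower and 16.6% higher at 4 h. Of the 3 at 4 h, 1 reached 1 FPKM in 4U alone and could hardly have been called otherwise. The same limit holds for genes of the lists below that reached 1 FPKM in only 1 library of a pair. CDKN1A, which encodes the cell cycle inhibitor p21, came to 193 FPKM in 2U and 20.9 in 2T, then 89.1 in 4U and 30.7 in 4T, lower in both treated libraries.

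Of 17 MYC-induced genes, 3 of the 16 with a ratio were called lower and 6 higher at 2 h, and 1 lower and 6 higher at 4 h, with median log2 ratios of 0.29 and 0.68. For all genes with a ratio, the shares called were 19.9% lower and 23.5% higher at 2 h, and 28.2% lower and 16.6% higher at 4 h. NPM1 and NCL, which encode nucleolar proteins of ribosome assembly, were higher in both treated libraries. NPM1 measured 152 FPKM in 2U and 654 in 2T, then 170.3 in 4U and 688 in 4T, and NCL was at 1.24, 11.8, 3.21 and 12.8 FPKM in that order. DKC1, a pseudouridine synthase subunit, was at 11.1, 40.7, 11.9 and 35.7 FPKM. NPM1, NCL and DKC1 were thus higher in the treated library at both times, where MYC was higher at 2 h and lower at 4 h. The list went both ways, and 3 of its 17 genes had both treated values under both untreated ones. Of 5 MYC-repressed genes, 1 of 3 was called lower at 2 h and 3 of 4 at 4 h, and none was called higher. Of the 11 genes of the MYC network, 3 had a ratio, with 1 called lower and 1 higher at 2 h and none called at 4 h, and MAX itself stayed under 1 FPKM.

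Of the 8 AP-1 genes, 6 of 7 with a ratio were called lower at 2 h (median log2 ratio -2.00) and 7 of 8 at 4 h (-1.93), and none was called higher. The share called lower over all genes was 19.9% at 2 h and 28.2% at 4 h. FOS and JUNB at 2 h and FOSB at 4 h reached 1 FPKM only in the untreated library and could hardly have been called otherwise. FOS, a classic SRF target and the partner of JUN in the AP-1 factor, stood at 29.4 FPKM in 2U and 0.193 in 2T, then 43.3 in 4U and 1.09 in 4T. JUN was at 13.4, 2.93, 20.2 and 3.72 FPKM and JUND at 16.9, 1.23, 11.4 and 3.75 FPKM in the same order. All 3 were lower in both treated libraries than in either untreated one.

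Of 30 other immediate early genes, 9 of 17 with a ratio were called lower and 2 higher at 2 h, and 15 of 20 were called lower and 1 higher at 4 h, with medians of -1.46 and -1.54. Over all genes with a ratio, 19.9% were called lower at 2 h and 28.2% at 4 h. Some of the genes called lower, SOCS3 and ARC at both times among them, reached 1 FPKM only in the untreated library. These could hardly have been called otherwise. CTGF, a matrix protein induced by serum, came to 58.5 FPKM in 2U and 3.38 in 2T, then 88.6 in 4U and 4.12 in 4T. SOCS3, a feedback inhibitor of cytokine signals, was at 2.88, 0.380, 6.77 and 0.434 FPKM, and ARC at 5.12, 0.141, 1.78 and 0.345 FPKM. The untreated values of each were above both treated ones. ID2, an inhibitor of helix-loop-helix factors, went the other way and was called higher at both times.

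Along the route from the MAP kinases to SRF, 4 of 11 genes with a ratio were called lower and 2 higher at 2 h, and 7 of 12 were called lower and none higher at 4 h, with medians of -0.76 and -1.29. Among all genes, 19.9% were called lower and 23.5% higher at 2 h, and 28.2% lower and 16.6% higher at 4 h. RPS6KA1, a kinase downstream of ERK, measured 5.21 FPKM in 2U and 0.983 in 2T, then 3.71 in 4U and 0.544 in 4T. MAP2K1, the ERK-activating kinase MEK1, was at 7.83, 1.84, 4.40 and 1.59 FPKM, and ARAF at 10.8, 5.37, 7.27 and 3.21 FPKM. SRF itself was at 12.0, 4.07, 11.8 and 6.58 FPKM, lower in both treated libraries and called at 2 h only. The phosphorylation of these kinases is not measured by mRNA.

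**Figure D4:**
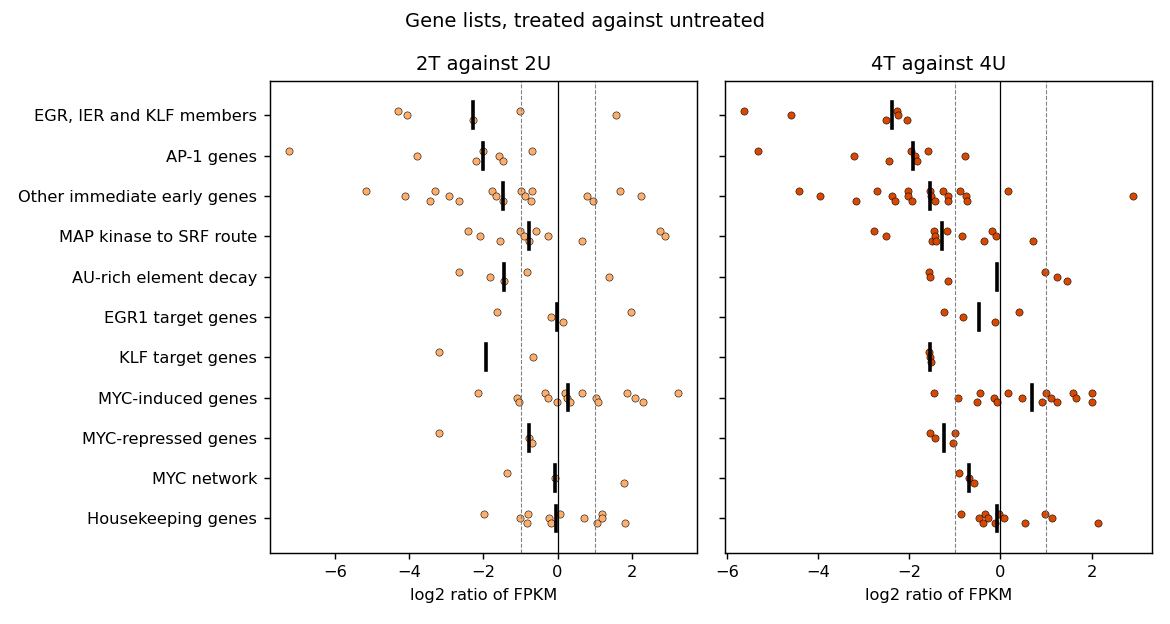
Log2 ratio of FPKM in 2T against 2U (left) and 4T against 4U (right) for the members and 10 other lists, 1 point per gene with a ratio, with a black bar at the median of each list and dashed lines at the 2-fold marks. The medians of the members with a ratio (-2.29 for 5 at 2 h and -2.39 for 6 at 4 h) lie left of the 2-fold mark. Some of these members reached 1 FPKM only in the untreated library. The medians of the AP-1 genes (-2.00 and -1.93) also lie left of it, and those of the housekeeping genes lie near 0 (-0.05 and -0.07).

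Among 10 genes of AU-rich element decay, by which the tails of early response mRNAs are broken down, 3 of 5 with a ratio were called lower and 1 higher at 2 h, and 3 of 6 lower and 2 higher at 4 h. The shares over all genes were 19.9% lower and 23.5% higher at 2 h, and 28.2% lower and 16.6% higher at 4 h. ZFP36L1, a decay factor, stood at 5.46 FPKM in 2U and 0.858 in 2T, then 3.17 in 4U and 1.08 in 4T. ELAVL1, the stabilizing protein HuR, was at 9.73, 3.54, 8.08 and 2.71 FPKM, and CNOT7, a deadenylase subunit, at 3.65, 1.03, 0.978 and 2.29 FPKM. ZFP36L1 and ELAVL1 were lower in both treated libraries, whereas CNOT7 was lower at 2 h and higher at 4 h. Of 12 housekeeping genes, 2 were called lower and 4 higher at 2 h, and none lower and 2 higher at 4 h.

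The genes whose pattern was most like that of a member were sought over the 4 libraries among 6417 genes, as the root mean square difference of log2(FPKM + 1) after centring each gene. For EGR1, which had the widest range among the members with at least 1 FPKM in a library (5.35 on that scale), they were FOS (0.196), CTGF (0.356) and LOC729991-MEF2B (0.368), a locus that overlaps MEF2B and may share reads with it. For KLF2, which had the narrowest range (1.36), they were TPRN (0.0158), SEPT9 (0.0332) and PIF1 (0.0595), all highest in 4U. For the mean profile of the 7 members they were SOCS3 (0.0684), JUN (0.192), ARFRP1 (0.212), DPH2 (0.216) and EPHA2 (0.247). With 4 libraries, such likeness describes these libraries and nothing beyond them.

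The members were short genes. On GRCh37, the build of the deposited values, they spanned a median of 5066 bases, beside 28430 over the 16629 coding genes with an annotated structure, and 7 of 10 had at most 3 exons in their main transcript (70%), beside 18.6% of all and 12.4% of those with at least 1 FPKM in a library. IER3 was the shortest, with 1350 bases in 2 exons (chr6:30710976-30712325, - strand), and IER5 had a single exon (chr1:181057836-181062036, + strand). EGR1 lay at chr5:137801168-137804992 (+ strand, 2 exons), IER2 at chr19:13261225-13265725 (+ strand, 2 exons), KLF2 at chr19:16435637-16439496 (+ strand, 3 exons), KLF4 at chr9:110247133-110252763 (- strand, 5 exons) and KLF6 at chr10:3818188-3827473 (- strand, 4 exons). EGR3 (chr8:22545172-22550993, - strand), KLF10 (chr8:103661012-103667953, - strand) and MYC (chr8:128747680-128755197, + strand) lay on 1 chromosome, far apart.

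**Figure D5:**
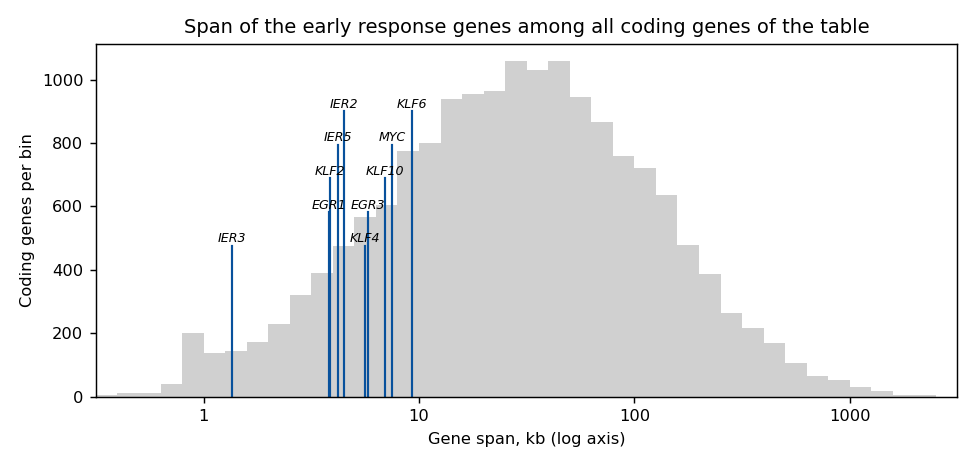
Number of coding genes per bin of gene span in kilobases (log axis) for all coding genes of the table, with the 10 members marked by lines whose height has no meaning. All 10 stand left of the median of 28430 bases, from IER3 (1350 bases) to KLF6 (9286 bases).

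The 3′UTR, the tail after the coding part, often holds AU-rich elements in early response mRNAs, whose pentamer reads ATTTA in DNA letters. At least 1 pentamer was found in 9 of 10 members (90%) and in 69.1% of 16402 genes, and the median number was 3.5 beside 2. The 3′UTRs of the members were also longer, with a median of 1501 bases beside 1128. Per kilobase, the median was 2.23 pentamers beside 1.58. IER3 held 6 in 737 bases, the densest at 8.14 per kilobase, MYC held 6 in 1993 bases, and IER5 held 10 in 3014 bases. IER2 held none in 1053 bases and EGR1 held 1 in 1222 bases, and KLF6 held 6 in 3543 bases. The longer form TTATTTATT was found in IER5 only, 3 times, and in 8.76% of all genes.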

How the data were processed

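mRNA libraries of SK-HEP-1 cells (2U, 2T, 4U, 4T, 1 each) were analysed, and the miRNA libraries of the series were not used here. Per the labels, poly(A) RNA was sequenced on SOLiD 3 and processed on hg19 with TopHat and Cufflinks, whereas the study's methods name Bowtie and Cufflinks. The authors deposited FPKM values, normalized to transcript length and mapped reads, without counts, and intervals for single genes were therefore not computed. Libraries were made with PCR and no molecular identifiers, and whether reads were assigned by strand is not given in the sources used here.

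Log2 ratios of the FPKM as deposited, with nothing added, were formed for genes present in both libraries and at 1 FPKM or more in 1 of them, and called at 2-fold. Single comparisons have 1 library per side and no test. Treated and untreated libraries were also compared over both times with limma 3.58.1 in R 4.3.3 (log2(FPKM + 1), at least 1 FPKM in a library, with and without time as a block, Benjamini-Hochberg adjustment), a test added after the data were seen. The members and the 16 gene lists were chosen with earlier results of these data known. The text names all 10 members and, per list, at most the 3 genes with the largest mean absolute log2 ratio among those called at both times, and the genes nearest to EGR1, to KLF2 and to the mean profile. A result of the EGR1 target list that this rule would name is not reported here. MAX, F3, ID2, SRF, ACTB, EGR4 and KLF16 and the marker genes were named after their values were seen. Alternatives covered log2(FPKM + 1), the minimum, the scaling, a 3-fold call and the untreated library used.

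Calculations used Python 3.11.15, numpy 2.4.6, pandas 2.3.3 and matplotlib 3.10.9, and the code for ratios, calls, read steps and the limma fit was tested on simulated data. Gene positions, exons and 3′UTRs are of the GENCODE annotation on GRCh37 (Ensembl canonical transcripts), and promoters of the RefSeq table on GRCh38.p14, which held 6 of the 10 members. Promoters of EGR3, IER3, KLF10 and MYC were not analysed here.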

Additional observations from a re-analysis of the deposited data

Results flagged for a closer look

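MYC was called in opposite directions at the 2 times, higher in 2T than in 2U and lower in 4T than in 4U. The log2 ratio at 4 h minus that at 2 h was -3.82. With 1 pair of libraries at each time the difference was not tested. The untreated level of MYC differed 10.7-fold between 4U and 2U while the treated levels differed 1.32-fold.

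CNOT7, the deadenylase subunit, was called lower at 2 h and higher at 4 h, with a difference of 3.05 between its log2 ratios, also not tested.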

How the results depend on the processing

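No paired analysis was possible because each condition had 1 mRNA library with no replicate number to pair or leave out, other than the limma fit with time as a block. That fit called 29 genes lower and 10 higher. The counts were 0 and 0 without the block, 7 and 1 with log2(FPKM + 0.1), 97 and 93 among genes with 1 FPKM in all 4 libraries, and 0 and 0 after scaling to a common median ratio. EGR1 was called with log2(FPKM + 0.1) (limma adjusted p = 0.049) and IER2 was not (0.062). With 1 FPKM required in all 4 libraries, limma gave adjusted p of 0.000823 for IER2 and 0.043 for IER5, and EGR1 was not in the fit. Of the single member ratios recomputed under the alternatives, 128 stayed within 1.5-fold of the value reported, 15 moved further and 3 turned direction. The 3 were of MYC, whose log2 ratio of 2T was -0.14 against the geometric mean of 2U and 4U and -1.84 against 4U, and whose ratio of 4T to 2U was 1.17. The use of the other untreated library and a zero for values under 0.2 FPKM were added after the data were seen.

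The median of the members at 2 h was -1.67 on the log2(FPKM + 1) scale, -1.03 with no minimum, -1.66 with 1 FPKM in both libraries and -1.66 with values under 0.2 set to 0. The count of members higher at 2 h was 2 with no minimum (MYC and KLF10) and 0 at 3-fold, against the geometric mean and against 4U. At 4 h the median was -1.80 against the geometric mean, and 1 member was higher (MYC) against 2U. No member, 0, was lower in 4U than in 2U with log2(FPKM + 1), with 1 FPKM in both libraries or at 3-fold, and 2 were higher in 4T than in 2T with no minimum. The change of minimum, the zero for low values and the other control also changed which members had a ratio. The cause was not tested otherwise.

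Scaling all libraries to a common median ratio moved 4U by 0.18 and 4T by -0.14 on the log2 scale and brought the median of all genes at 4 h from -0.37 to 0.00. The genes called at 4 h were then 17.5% lower and 24% higher, in place of 28.2% and 16.6%, while the 6 members called lower at 4 h were still called lower and no member turned direction. EGR1 at 0.93 was then no longer called in 4U against 2U. Depth limits KLF2, KLF4, KLF6, KLF10 and EGR3 most, since they lie near or under 1 FPKM.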
